A study of Rattus norvegicus with 8 samples.

Results

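The RNA of untreated rat liver was compared with the RNA of untreated rat spleen on 6 of the 8 whole-genome arrays of a lavender oil (LO) study, 4 of liver and 2 of spleen. Each array carried 2 dyes, and the dye channel used here held control RNA. It came from male rats, described as 7 weeks old, that were given 10% ethanol by mouth once a day for 13 days. Tissue was taken after that period, so the rats were then older than 7 weeks. The other channel of the same arrays held RNA of rats given LO at 5 mg/kg in the same way. The study used 12 rats, 6 in a group, and RNA was pooled within a group before labelling, so no value stands for a single animal. The husbandry text calls the rats F334 (Fischer) animals while the strain field of the sample labels says Wistar, and the sources used here do not settle which holds.

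The whole spleen was taken, whereas the liver was sampled as tissue blocks, and the sources used here mention no step that removed blood from either. The liver arrays hold 2 RNA pools, called pool 1 and pool 2, and the sources do not say how these differ. Spleen had 1 pool. Each pool was hybridized with the control in Cy3 on replicate 1 and in Cy5 on replicate 2. The liver and the spleen arrays lay on different slides that were scanned on different days, so slide, scan day and tissue cannot be told apart. A lower value for a gene of a given cell type can mean fewer such cells or less of its RNA per cell, and whole-organ RNA does not separate these.

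Of the 41012 probes, 24830 were well above background, by the scanner software's own flag, on every control channel of at least 1 tissue and were compared. Among 8898 genes with a symbol, 6262 were compared, each through its brightest probe. A level is the log2 of the processed signal after quantile normalization over the 6 control channels, and a difference is the liver level minus the spleen level, so that 1 log2 unit is a 2-fold difference in signal. Levels of different genes come from different probes and are not set against each other. A gene was called higher in a tissue when the Benjamini-Hochberg adjusted p of limma was below 0.05, the difference was at least 1 log2 unit in size, and both dyes gave the same sign. The test had 2 liver pools against 1 spleen pool, whose spread was taken to be like that of the liver pools.

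The liver is built mainly of hepatocytes, which make most proteins of the blood plasma, dispose of ammonia as urea, release glucose during fasting, make bile acids and break down foreign compounds. The spleen filters blood. Its white pulp holds B and T lymphocytes in separate zones laid out by chemokines, and its red pulp holds macrophages that remove aged red cells, together with erythroid precursors and megakaryocytes in rodents. Both organs hold resident macrophages, known as Kupffer cells in the liver and red pulp macrophages in the spleen.

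The control channels of the liver arrays had 45.2% to 57.9% of their 43379 features well above background and those of spleen 59.0% to 64.9%. No feature was saturated. The 100 brightest features held 25.0% to 29.3% of the summed signal on a liver array and 15.6% to 18.3% on a spleen array. Both tissues passed the background flag on every array for 15580 probes, liver alone for 1236, spleen alone for 8014 and neither for 16166. A probe that passed in spleen alone can still have passed on some liver arrays, as that of *Gzmb* did on 3 of the 4, and the same holds for the other classes. Among the 15580 probes measured in both tissues, 3131 (20.1%) were called higher in liver and 3033 (19.5%) higher in spleen. Among the 4597 genes with a symbol that were measured in both, 1061 (23.1%) were called higher in liver and 929 (20.2%) higher in spleen. These 4 shares are the background for the counts of members under quantile normalization. Of the probes that passed in liver only, 1207 of 1236 were called higher in liver, and of those that passed in spleen only, 3926 of 8014 were called higher in spleen and 23 higher in liver. The background flag chose these probes by their level in 1 tissue, so their counts are descriptions.

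The difference between the tissues was wide beside the spread of the replicates. Over the 15580 probes the median size of liver minus spleen was 1.01 log2 units, with a 95th percentile of 3.57. The same quantities for liver pool 1 minus liver pool 2 were 0.28 and 0.89. The tissue difference read in Cy3 and the one read in Cy5 lay a median of 0.15 log2 units apart, and they had a correlation of 0.989 across probes, which share arrays, pools and normalization. In the LO channel, which held RNA of other rats on the same arrays, all 6164 probes called in the control channel had the same sign and 6151 kept a difference of at least 1 log2 unit. Both channels share the slide, the scan day and the dye normalization of an array, so this is a description and not an independent replicate.

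**Figure D1:**
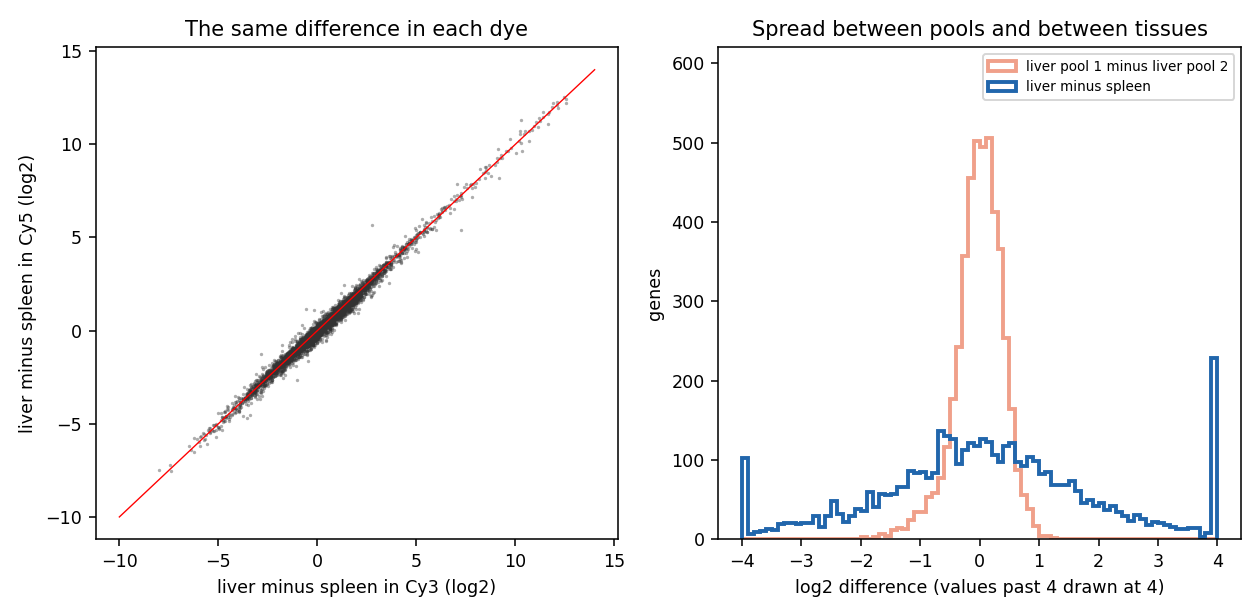
Left, liver minus spleen in log2 units read in Cy3 (x axis) and in Cy5 (y axis) for the 4597 genes measured in both tissues, with the line of equal values in red. Right, the number of these genes (y axis) by log2 difference (x axis) between the 2 liver pools and between liver and spleen, where the tissue difference is the wider distribution.

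**Figure D2:**
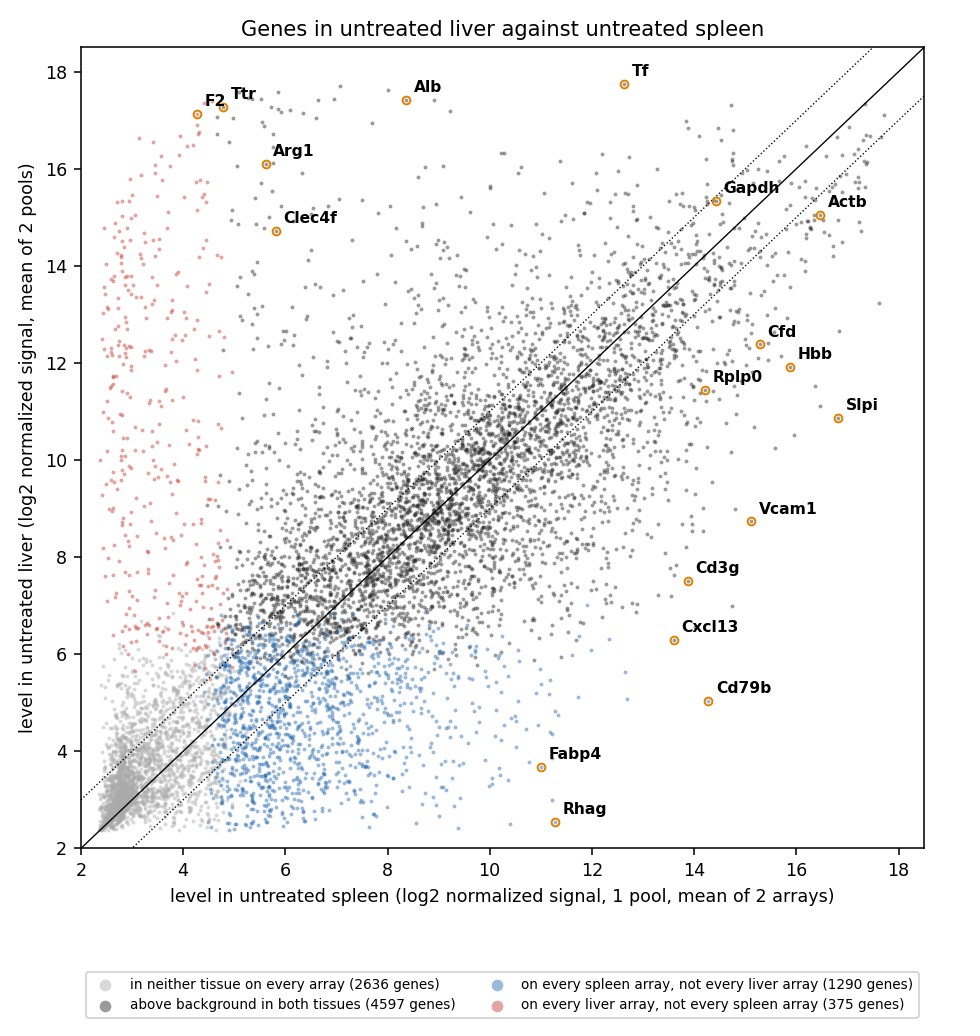
Each point is a gene placed by its mean log2 level in spleen (x axis) and in liver (y axis), coloured by the tissues in which it was well above background on every array, with the solid line at equal levels and dotted lines 1 log2 unit away. Plasma protein genes such as *Ttr* and *F2* sit at the upper left and *Cd79b*, *Cxcl13* and *Rhag* at the lower right.

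Plasma protein genes showed the widest gap. Of 22 listed genes with a probe, 15 were measured in both tissues and all 15 were called higher in liver, with a median difference of 11.64 log2 units, where the median over the 15580 probes was 0.03. Under normexp background correction of median signals the median of the 15 was 9.72, so the size of these gaps depended on the processing. The other 7 were well above background on every liver array and not on every spleen array. *Alb* encodes albumin, the main carrier protein of plasma. In the order liver pool 1 Cy3, pool 1 Cy5, pool 2 Cy3, pool 2 Cy5, then spleen Cy3 and Cy5, its levels were 17.43, 17.37, 17.41 and 17.49 in liver and 8.38 and 8.37 in spleen. The 4 liver arrays lay within a narrow range and far above spleen, with a difference of 9.06 ± 0.36 (SE, adjusted p = 0.000196). *Ttr*, for the thyroid hormone and retinol carrier transthyretin, had 17.20, 17.35, 17.24 and 17.30 in liver and 4.66 and 4.89 in spleen and differed by 12.50 ± 0.36 (SE, adjusted p = 0.000171), a 5795-fold difference in signal. The smallest gap of the list belonged to *Tf*, for the iron carrier transferrin. It had 17.75, 17.96, 17.56 and 17.75 in liver and 12.61 and 12.66 in spleen, so both spleen arrays were bright, and it differed by 5.12 ± 0.37 (SE, adjusted p = 0.00089). The summed normalized signal of the 22 genes was 3113800 to 3204900 on a liver array and 7590 to 7816 on a spleen array.

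The genes with the 10 largest differences among those measured in both tissues and higher in liver were *Ttr*, *Ambp*, *Apoa4*, *Fgb*, *Serpina1*, *Serpina3c*, *Apoh*, *Hrg*, *Apoc3* and *Hpx*, and their differences ran from 11.64 to 12.50 log2 units. All 10 encode secreted proteins of plasma. *Fgb* encodes the beta chain of fibrinogen and had 17.32, 17.54, 17.41 and 17.54 in liver and 5.25 and 5.29 in spleen. *Hpx* encodes hemopexin, which binds free heme, and had 16.50, 16.49, 16.53 and 16.64 in liver and 4.88 and 4.93 in spleen. No array of either tissue came near the range of the other for these genes.

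Where no array of the dimmer tissue was above background, only a bound can be given. It sets the bright tissue's mean against, on each array of the dim tissue, the higher of the probe's own signal and the lowest signal of any probe that passed. That lowest signal is not a detection limit, since a probe can fail the flag above it, as that of *Fbp1* did. Each "at least" fold given here is relative to that floor. The bounds were computed with quantile normalization only, and their size under other processing was not tested. The largest bounds toward liver were those of *F2*, *Spp2*, *Fbp1*, *Azgp1*, *Pzp*, *Fga*, *Gnmt*, *Slc27a5*, *Ces1c* and *Cyp2c7*. *F2*, for prothrombin, had 17.21, 17.18, 17.09 and 17.05 in liver and 4.46 and 4.07 in spleen and was at least 6430.5-fold higher in liver. *Spp2*, for a secreted phosphoprotein made by liver and found in bone, was at least 5616-fold higher, and *Cyp2c7* was at the end of the group with at least 3792-fold.

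The stretches before the start sites of the plasma protein genes were read for TTGCNNAA, a motif of the C/EBP family of factors, on either strand, in RefSeq promoters of build GRCr8 that span 250 bases before to 50 bases after a start site. The motif stood in 9 of the 18 plasma protein promoters in that table and in 10.5% of all 27457 promoters. Other liver lists ranged from 8 of 20 complement and coagulation promoters to 0 of 13 for glucose production and storage, and of the adipocyte promoters 3 of 7 held it. These are the stretches of 4 genes whose levels were given above, each as 60 bases before its start site on the strand of the gene, with the match in capitals, and all 4 genes were called higher in liver.
Alb: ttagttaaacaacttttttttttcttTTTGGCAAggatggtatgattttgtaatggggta
Tf: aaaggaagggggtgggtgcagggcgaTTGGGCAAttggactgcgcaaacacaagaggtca
Hpx: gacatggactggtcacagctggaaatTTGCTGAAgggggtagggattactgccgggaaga
Fgb: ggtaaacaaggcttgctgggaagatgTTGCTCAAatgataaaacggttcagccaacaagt
The *Alb* stretch is chr14:17907090-17907149 on the minus strand, and its match, in reverse orientation, begins 144 bases before the start site. The *Tf* stretch is chr8:112695458-112695517 on the minus strand, with a reverse match 115 bases before the start. *Hpx* holds the motif in forward orientation 200 bases before the start, in chr1:169352322-169352381 on the minus strand. *Fgb* holds it in forward orientation too, 141 bases before the start, in chr2:170700983-170701042 on the minus strand. Genes called at least 16-fold higher in liver held the motif in 75 of 403 promoters (18.6%) and those called at least 16-fold higher in spleen in 17 of 172 (9.88%). These sets, used again below, mix genes measured in both tissues with genes that passed the background flag in liver alone or in spleen alone. A match of letters is a description of the sequence and not a measured binding site.

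Complement and coagulation genes were likewise higher in liver. Of 17 with a probe, 6 were measured in both tissues and 6 were called higher in liver, with a median difference of 8.58, and the other 11 were above background on every array of liver only. *C3*, the central component of complement, had 17.26, 17.13, 17.20 and 17.18 in liver and 9.22 and 9.22 in spleen and differed by 7.97 ± 0.36 (SE, adjusted p = 0.000257). *Cfb*, for factor B of the alternative pathway, had 15.77, 15.50, 15.74 and 15.59 in liver and 9.96 and 10.07 in spleen, the smallest gap of the list, with 5.63 ± 0.36 (SE, adjusted p = 0.000647). *C4bpa*, for a chain of the inhibitor C4b-binding protein, was not above background in spleen on either array and was at least 1306-fold higher in liver.

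Cytochrome P450 genes, whose enzymes oxidize drugs, steroids and fatty acids, lay mostly on the liver side. Of 20 with a probe, 6 were measured in both tissues and all 6 were called higher in liver, by a median of 7.21 log2 units, and 13 more passed in liver only. *Cyp2b3* had 16.05, 16.21, 15.99 and 16.01 in liver and 4.89 and 5.21 in spleen and differed by 11.02 ± 0.36 (SE, adjusted p = 0.000171). *Cyp2e1*, whose enzyme oxidizes ethanol and small solvents, had 15.94, 16.06, 15.68 and 15.78 in liver and 3.34 and 3.02 in spleen and was at least 3301-fold higher in liver. *Cyp1a2*, for the caffeine-oxidizing enzyme, was at least 426-fold higher. Both tissues had received ethanol as the vehicle, and no animals without it were compared here. The exception was *Cyp1b1*, known for its expression outside hepatocytes. Its levels were 4.86, 4.33, 4.27 and 4.43 in liver and 9.21 and 9.09 in spleen, not above background on any liver array, and it was at least 17.9-fold higher in spleen.

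Conjugation enzymes attach glucuronide, sulfate, glutathione or methyl groups to a substrate. Of 16 with a probe, 7 were measured in both tissues and 7 were called higher in liver, with a median of 4.30. *Sult1a1*, a phenol sulfotransferase, had 14.51, 14.57, 14.32 and 14.54 in liver and 9.27 and 8.96 in spleen and differed by 5.37 ± 0.36 (SE, adjusted p = 0.000767). *Ugt2b35* was at least 1442-fold higher in liver and *Ugt1a1*, which conjugates bilirubin, at least 87.1-fold. *Gnmt*, which methylates glycine, had the widest gap of the list, at least 4397-fold. The smallest belonged to the arylamine acetyltransferase *Nat2*, with 8.83, 8.61, 8.73 and 8.61 in liver and 7.37 and 7.34 in spleen and a difference of 1.34 ± 0.36 (SE, adjusted p = 0.0344). Its call was lost under median scaling, where the difference was 1.097.

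Of 16 bile acid genes with a probe, 9 were measured in both tissues and 9 were called higher in liver, with a median of 5.53. *Cyp7a1*, the rate-limiting enzyme of bile acid synthesis, had 9.83, 10.18, 9.14 and 9.21 in liver and 2.69 and 2.89 in spleen and was at least 42.6-fold higher in liver. Both arrays of liver pool 1 were above both of pool 2. *Cyp27a1*, which opens the alternative route, was also measured in spleen, with 12.65, 12.51, 12.96 and 12.85 in liver and 7.31 and 7.31 in spleen and a difference of 5.43 ± 0.38 (SE, adjusted p = 0.000837). *Slc27a5*, for the bile acid CoA ligase, was at least 4055-fold higher in liver. The transporters ranged widely. The canalicular pump *Abcb11* differed by 6.92, and *Slco2b1*, for an organic anion uptake carrier, by 2.67 ± 0.36 (SE, adjusted p = 0.00487).

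All 6 measured genes of the urea cycle were above background on every liver array, and 4 of them in both tissues, each called higher in liver. *Arg1*, the arginase of the last step, had 16.16, 16.28, 15.95 and 15.98 in liver and 5.63 and 5.59 in spleen and differed by 10.48 ± 0.37 (SE, adjusted p = 0.000171). *Ass1*, which makes argininosuccinate, had 16.00, 15.73, 15.98 and 15.93 in liver and 6.49 and 6.17 in spleen and differed by 9.58 ± 0.36 (SE, adjusted p = 0.000181). *Asl*, which splits it, was less one-sided, with 11.78, 11.38, 11.81 and 11.73 in liver and 7.99 and 8.12 in spleen and 3.62 ± 0.37 (SE, adjusted p = 0.00228). *Cps1* and *Otc*, the mitochondrial steps, were at least 436-fold and at least 776-fold higher in liver.

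Genes of glucose production and storage had 16 members with a probe, of which 7 were measured in both tissues and 7 were called higher in liver, with a median of 6.11. *Pck1*, which starts gluconeogenesis from oxaloacetate, had 12.70, 12.17, 12.62 and 12.42 in liver and 5.95 and 5.99 in spleen and differed by 6.51 ± 0.36 (SE, adjusted p = 0.000431). *Fbp1*, the fructose bisphosphatase, had 16.61, 16.76, 16.79 and 16.73 in liver and 4.04 and 4.53 in spleen and was 5555-fold higher in liver. It passed on neither spleen array, but both signals lay above the lowest passing ones, so its bound is no more than the measured fold. *G6pc1*, which frees glucose from its phosphate, had 14.79, 14.77, 14.25 and 14.32 in liver and 4.64 and 4.24 in spleen, above background on 1 of the 2 spleen arrays, and differed by 10.09 ± 0.41 (SE, adjusted p = 0.000197). The transporter of glucose 6-phosphate that serves it, *Slc37a4*, was well measured in spleen too, with 14.41, 14.38, 14.29 and 14.29 in liver and 10.12 and 10.12 in spleen and 4.22 ± 0.36 (SE, adjusted p = 0.00142). *Ppargc1a*, a coactivator of this program, was not above background on every array of either tissue and was not tested.

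Amino acid breakdown genes lay toward liver as well, with 1 exception. Of 16 with a probe, 7 were measured in both tissues, 6 were called higher in liver and 1 was not called, with a median of 5.69. *Bhmt*, which methylates homocysteine with betaine, had 17.47, 17.56, 17.35 and 17.27 in liver and 8.92 and 8.90 in spleen and differed by 8.50 ± 0.37 (SE, adjusted p = 0.000231). *Tdo2*, which opens the tryptophan ring, had 14.87, 14.69, 15.00 and 14.92 in liver and 4.89 and 5.27 in spleen and differed by 9.79 ± 0.37 (SE, adjusted p = 0.000179). The gene that was not called was *Sds*, for serine dehydratase. Its levels were 9.87, 9.52, 10.24 and 9.90 in liver and 9.70 and 9.41 in spleen, the tissues overlapped, and the difference was 0.33 ± 0.39 (SE, adjusted p = 0.52).

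Several reactions are served by alternative genes. A list of these was drawn up after values of the other lists had been seen. Of the hexokinases, which phosphorylate glucose, *Hk1* had 6.85, 6.68, 6.66 and 6.79 in liver and 11.38 and 11.42 in spleen and differed by -4.65 ± 0.36 (SE, adjusted p = 0.00109), higher in spleen. *Hk3*, a hexokinase known from leukocytes, was higher in liver, with 8.62, 8.30, 8.94 and 8.62 in liver and 7.36 and 6.93 in spleen and 1.48 ± 0.38 (SE, adjusted p = 0.0303). For pyruvate kinase, the liver and red cell gene *Pklr* had 12.72, 12.68, 12.58 and 12.65 in liver and 5.94 and 6.08 in spleen and differed by 6.64 ± 0.36 (SE, adjusted p = 0.000413), while *Pkm* had 7.78, 8.03, 7.99 and 8.13 in liver and 12.21 and 12.34 in spleen and differed by -4.30 ± 0.37 (SE, adjusted p = 0.00138). The 2 genes thus went opposite ways, each by many times its SE.

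For aldolase, which splits fructose bisphosphate, *Aldoa* differed by -2.17 ± 0.36 (SE, adjusted p = 0.00867) and *Aldoc* by -0.03 ± 0.39 (SE, adjusted p = 0.959). *Mat1a*, the methionine adenosyltransferase of hepatocytes, differed by 8.18 ± 0.36 (SE, adjusted p = 0.000239), with 1 of the 2 spleen arrays above background, and *Mat2a* by -3.13 ± 0.58 (SE, adjusted p = 0.012), with not every liver array above it. Glucose carriers had *Slc2a2* at least 85.8-fold higher in liver and *Slc2a1* at 0.17 ± 0.36 (SE, adjusted p = 0.73), which was not called. Among fatty acid binding proteins, *Fabp1* differed by 11.55 ± 0.36 (SE, adjusted p = 0.000171), *Fabp5* by 0.46 ± 0.37 (SE, adjusted p = 0.351), and *Fabp4*, known from adipocytes, macrophages and capillaries, was at least 64.8-fold higher in spleen. Not every pair divided. *Pfkl*, the liver form of phosphofructokinase, differed by 0.53 ± 0.45 (SE, adjusted p = 0.368) and was not called. *Fbp2* and *Acsl4*, which are not the liver forms, were higher in liver, by 1.76 and 2.51 log2 units.

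**Figure D3:**
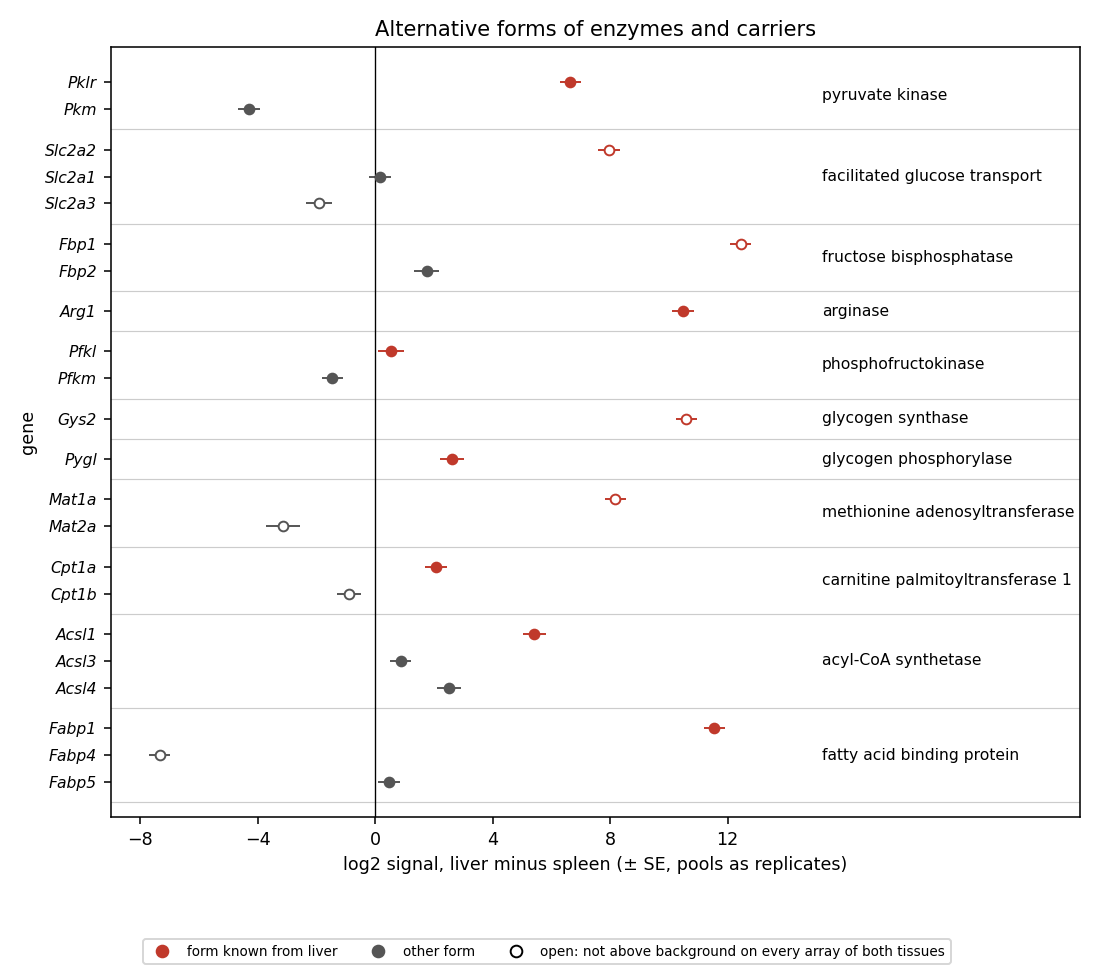
Liver minus spleen in log2 signal (x axis, ± SE from limma) for genes (y axis) that serve the same reaction or transport, with the form known from liver in red and other forms in grey, and open points where a gene was not above background on every array of both tissues. *Pklr* and *Pkm*, *Mat1a* and *Mat2a*, and *Fabp1* and *Fabp4* lie on opposite sides of 0, and *Pfkl*, *Slc2a1* and *Fabp5* lie near it.

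Of 17 nuclear receptors and liver transcription factors with a probe, 5 were measured in both tissues and 5 were called higher in liver, with a median of 3.81, a smaller gap than that of the enzymes and plasma proteins. *Hnf4a*, a nuclear receptor that hepatocyte genes depend on, had 8.77, 8.69, 9.30 and 9.37 in liver and 5.33 and 5.72 in spleen and differed by 3.51 ± 0.43 (SE, adjusted p = 0.00375). *Foxa2* had 10.73, 10.94, 10.89 and 10.90 in liver and 2.44 and 2.63 in spleen and was at least 103-fold higher in liver. *Rxra*, the partner of many nuclear receptors, had the smallest gap, 2.20 ± 0.37 (SE, adjusted p = 0.00871). *Creb3l3* had the widest, 9.55 ± 0.39 (SE, adjusted p = 0.000209), with 1 of 2 spleen arrays above background.

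Lymphocyte genes lay on the spleen side. No probe was named here for *Cd79a* or *Ms4a1*. Of 7 B cell genes with a probe, none was above background on every liver array and all 7 were on both spleen arrays, so their gaps are described and not counted as support. *Cd79b*, a signalling chain of the B cell receptor, had 5.26, 5.36, 4.01 and 5.50 in liver and 14.27 and 14.28 in spleen. Its probe passed on 2 of the 4 liver arrays and differed by -9.24 ± 0.42 (SE, adjusted p = 0.000259), the widest of the list. *Blk*, a kinase of the same receptor, had 3.09, 4.86, 2.92 and 4.42 in liver and 9.82 and 9.99 in spleen and was at least 29.2-fold higher in spleen. *Fcer2*, the low-affinity IgE receptor of follicular B cells, differed by -6.62 ± 0.36 (SE, adjusted p = 0.000413). *Cxcr5*, which guides B cells into follicles, had 2.66, 2.64, 4.76 and 5.33 in liver and 6.57 and 6.65 in spleen. Its 2 liver pools lay apart, and the difference of -2.76 ± 0.99 (SE, adjusted p = 0.0745) was not called.

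Of 14 T cell genes with a probe, 6 were measured in both tissues, and 5 were called higher in spleen with 1 not called. The median was -3.84. *Cd3g* and *Cd3d* encode chains of the CD3 complex. *Cd3g* had 7.77, 7.41, 7.69 and 7.17 in liver and 13.95 and 13.80 in spleen and differed by -6.37 ± 0.37 (SE, adjusted p = 0.000473). *Cd3d* had 9.92, 9.61, 10.28 and 10.43 in liver and 13.38 and 13.45 in spleen and differed by -3.36 ± 0.43 (SE, adjusted p = 0.00409). *Cd2* was at the bottom of the scale on the liver arrays, with 2.42, 2.41, 2.39 and 2.46 in liver and 9.48 and 9.27 in spleen, and was at least 20.9-fold higher in spleen. *Ccr7*, the homing receptor of naive T cells, had 6.32, 6.50, 7.06 and 7.86 in liver and 7.91 and 8.08 in spleen, with 1 liver array close to spleen, and its difference of -1.06 ± 0.54 (SE, adjusted p = 0.168) was not called.

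Cytotoxic genes lay on the spleen side. Of 11 with a probe, 6 were measured in both tissues, of which 5 were called higher in spleen and 1 was not, with a median of -3.26. The other 5 passed in spleen only and were called higher in spleen, as were 702 of all 1290 genes of that kind. The background flag chose them by their level in spleen, so they are described and not counted as support. *Gzmk* had 7.23, 7.41, 7.20 and 7.35 in liver and 11.50 and 11.49 in spleen and differed by -4.19 ± 0.36 (SE, adjusted p = 0.00143). *Prf1*, for perforin, had 8.97, 8.92, 8.77 and 8.66 in liver and 11.86 and 11.82 in spleen and differed by -3.01 ± 0.37 (SE, adjusted p = 0.00382). *Gzma*, another granule protease, had 10.26, 10.03, 10.37 and 10.27 in liver and 10.80 and 10.66 in spleen, and its difference of -0.50 ± 0.37 (SE, adjusted p = 0.311) was not called. *Gzma* was above background on all 4 liver arrays, whereas *Klrd1*, an NK receptor chain, was on 0 of the 4 and was at least 16.6-fold higher in spleen.

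Macrophage genes did not all lie on 1 side. Of 17 with a probe, 15 were measured in both tissues. Of these 12 were called higher in spleen, 1 higher in liver and 2 were not called, with a median of -2.13. The count called higher in spleen depended on the scaling. It was 9 under 75th percentile scaling, with a median of -1.56, and 14 with no scaling, with a median of -2.43. *Cd68*, a lysosomal protein of macrophages, had 11.20, 11.37, 11.46 and 11.49 in liver and 14.13 and 14.10 in spleen and differed by -2.74 ± 0.37 (SE, adjusted p = 0.00478). *Vcam1*, an adhesion protein that red pulp macrophages and vessels carry, had 8.73, 8.94, 8.68 and 8.59 in liver and 15.07 and 15.14 in spleen and differed by -6.37 ± 0.37 (SE, adjusted p = 0.000485). *Hmox1*, which breaks down heme, differed by -3.97 ± 0.37 (SE, adjusted p = 0.00181). The gene on the liver side was *Clec4f*, a lectin of rodent Kupffer cells, with 14.62, 14.69, 14.81 and 14.74 in liver and 5.77 and 5.85 in spleen and a difference of 8.91 ± 0.36 (SE, adjusted p = 0.000202). *Vsig4*, a complement receptor of Kupffer cells, was above background on every liver array and not in spleen, with 9.99, 10.05, 10.23 and 10.22 in liver and 4.47 and 4.09 in spleen. *Adgre1*, a surface receptor of macrophages, had 9.70, 9.50, 9.98 and 9.95 in liver and 10.65 and 10.59 in spleen, and its difference of -0.83 ± 0.39 (SE, adjusted p = 0.138) was not called.

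Erythroid genes were higher in spleen, and blood cells that stayed in either organ count toward them. Of 11 with a probe, 6 were measured in both tissues, and 4 were called higher in spleen, with 2 not called and a median of -4.22. *Hbb*, for beta globin, had 11.97, 11.97, 11.85 and 11.91 in liver and 15.82 and 15.93 in spleen and differed by -3.95 ± 0.36 (SE, adjusted p = 0.0017). *Alas2*, the first enzyme of heme synthesis in erythroid cells, had 10.36, 10.66, 10.82 and 10.89 in liver and 15.03 and 15.31 in spleen and differed by -4.49 ± 0.38 (SE, adjusted p = 0.00141). *Rhag*, a membrane protein of red cells, had 2.50, 2.64, 2.51 and 2.57 in liver and 11.14 and 11.40 in spleen, at the floor of every liver array, and was at least 77.8-fold higher in spleen, the largest bound in that direction. *Gypc* and *Epor* were not called, at -0.34 ± 0.36 (SE, adjusted p = 0.469) and -0.22 ± 0.41 (SE, adjusted p = 0.678).

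Platelet and granulocyte lists had few probes with a symbol. Of 7 megakaryocyte and platelet genes with a probe, 3 were measured in both tissues and 3 were called higher in spleen. *Pf4*, for platelet factor 4, had 8.38, 8.39, 8.52 and 8.57 in liver and 13.08 and 13.08 in spleen and differed by -4.61 ± 0.37 (SE, adjusted p = 0.00116). Of 5 granulocyte genes, 3 were measured in both, and 2 were called higher in spleen. *S100a8* and *S100a9* form calprotectin of neutrophils and monocytes. *S100a8* had 7.38, 7.15, 7.02 and 6.65 in liver and 11.61 and 11.55 in spleen and differed by -4.53 ± 0.40 (SE, adjusted p = 0.0015), and *S100a9* differed by -4.44 ± 0.37 (SE, adjusted p = 0.00129). *Prtn3*, a neutrophil granule protease, had 7.49, 7.68, 8.47 and 8.87 in liver and 6.56 and 6.64 in spleen, higher on the 4 liver arrays, but its difference of 1.52 ± 0.55 (SE, adjusted p = 0.0761) was not called, and the 2 liver pools lay apart.

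Among lymphoid chemokines and adhesion genes, 12 had a probe and 7 were measured in both tissues, of which 4 were called higher in spleen and 3 were not. *Cxcl13*, which draws B cells to follicles, had 6.47, 6.55, 6.09 and 6.05 in liver and 13.70 and 13.49 in spleen and differed by -7.31 ± 0.40 (SE, adjusted p = 0.000414). *Ccl21*, which draws T cells and dendritic cells, had 9.04, 8.92, 9.05 and 8.95 in liver and 14.78 and 14.80 in spleen and differed by -5.80 ± 0.36 (SE, adjusted p = 0.0006). *Cxcl12*, a chemokine of stroma in many organs, had 12.48, 12.92, 12.26 and 12.47 in liver and 12.98 and 13.04 in spleen, and its difference of -0.48 ± 0.38 (SE, adjusted p = 0.348) was not called. *Icam1* differed by -0.11 ± 0.36 (SE, adjusted p = 0.828).

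Genes of antigen presentation were called higher in spleen in part. Of 16 genes with a probe, 11 were measured in both tissues, of which 6 were called higher in spleen and 5 were not called. The 6 were the class II genes *RT1-Da*, *RT1-Bb*, *RT1-Db1* and *RT1-DMa*, the invariant chain *Cd74*, and *Cd40*. *RT1-Bb* had 11.44, 11.66, 11.38 and 11.60 in liver and 16.18 and 16.56 in spleen and differed by -4.85 ± 0.36 (SE, adjusted p = 0.000973). *RT1-Da* had 10.10, 10.68, 9.93 and 10.29 in liver and 15.45 and 15.73 in spleen and differed by -5.34 ± 0.38 (SE, adjusted p = 0.000848). The 5 not called were *B2m*, *Tap1*, *Tap2*, *Psmb8* and *Psmb9*, which serve class I presentation. The list was not fixed by class, and this grouping was seen in the values. Their differences ran from -1.03 to -0.06 log2 units. *Tap2*, a chain of the peptide transporter, had 10.72, 10.75, 11.08 and 10.87 in liver and 10.93 and 10.90 in spleen, and the tissues overlapped. Under 75th percentile scaling 1 gene of the list was called higher in liver, where 32.1% of all genes with a symbol measured in both tissues were.

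Genes of spleen stroma lay on the spleen side. Of 7 with a probe, 3 were measured in both tissues, of which 2 were called higher in spleen and 1 was not. A further 3 passed in spleen only and were called higher in spleen, as were 702 of all 1290 genes of that kind, which is a description and not support. *Nkx2-5*, a homeobox gene of spleen development, had 2.67, 3.56, 3.01 and 3.50 in liver and 7.28 and 7.39 in spleen, above background on no liver array, and was at least 5.09-fold higher in spleen. *Tagln*, a smooth muscle protein of the capsule and vessels, had 8.12, 7.93, 8.43 and 8.34 in liver and 12.58 and 12.63 in spleen and differed by -4.40 ± 0.39 (SE, adjusted p = 0.00151). *Pdgfrb*, of pericytes and fibroblasts, was not called, at -0.53 ± 0.36 (SE, adjusted p = 0.276). Mesothelium covers both organs, and *Msln* was higher in spleen, with 8.63, 8.41, 9.53 and 9.19 in liver and 12.17 and 11.90 in spleen and -3.10 ± 0.49 (SE, adjusted p = 0.00729). *Wt1*, which marks the same layer, was above background on no array.

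The transcription factors of blood cells had 9 members with a probe and 5 measured in both tissues, of which 4 were called higher in spleen and 1 was not, with a median of -2.80. *Ets1* had 9.38, 9.32, 9.36 and 9.13 in liver and 13.28 and 13.05 in spleen and differed by -3.87 ± 0.36 (SE, adjusted p = 0.00181). *Spi1*, for the myeloid and B cell factor PU.1, had 6.87, 7.38, 6.72 and 7.19 in liver and 9.29 and 9.77 in spleen and differed by -2.49 ± 0.37 (SE, adjusted p = 0.00616). *Runx1* differed by -4.09 ± 0.42 (SE, adjusted p = 0.00227). *Runx3* had 8.74, 8.96, 9.73 and 9.51 in liver and 8.23 and 8.31 in spleen, higher on the 4 liver arrays than in spleen, and its difference of 0.97 ± 0.47 (SE, adjusted p = 0.148) was not called. *Ebf1*, a B cell factor, differed by -5.79 ± 0.43 (SE, adjusted p = 0.000975), with 1 liver array above background.

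The promoters of the spleen-side lists were read for AGGAAGT, the core that ETS factors such as those of *Ets1* and *Spi1* bind, and for AGATAAG, the core of GATA factors, on both strands. The ETS core stood in 15.7% of the 172 promoters of genes called at least 16-fold higher in spleen, in 6.20% of the 403 toward liver and in 8.23% of all promoters. It stood in 3 of 8 B cell and 5 of 14 T cell promoters, but also in 5 of 22 oxidative phosphorylation and 4 of 19 proteasome promoters, and in 1 of 15 promoters of blood cell transcription factors. The GATA core stood in 3 of 14 erythroid promoters and in 2.77% of all, and it was in 21 of the 403 promoters toward liver (5.21%) and in 7 of the 172 toward spleen (4.07%). Other spleen-side lists held matches that are not printed here, such as the ETS core in 4 of 17 macrophage and monocyte promoters. These are 4 called genes of the B cell, T cell and erythroid lists with a match before the start site. Each is given as 60 bases on the strand of the gene. The ETS core is in capitals in the first 3 and the GATA core in the fourth.
Cd37: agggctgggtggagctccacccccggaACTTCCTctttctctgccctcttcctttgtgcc
Cd247: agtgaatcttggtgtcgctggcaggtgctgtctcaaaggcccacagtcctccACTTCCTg
Cd5: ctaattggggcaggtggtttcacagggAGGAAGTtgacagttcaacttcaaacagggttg
Rhd: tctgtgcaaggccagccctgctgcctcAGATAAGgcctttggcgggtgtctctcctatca
*Cd37*, a tetraspanin of B cells, holds the reverse ETS core 79 bases before its start in chr1:104860831-104860890 on the minus strand, and its level differed by -4.52 ± 0.38 (SE, adjusted p = 0.00135). *Cd247*, for the zeta chain of the T cell receptor complex, holds it 8 bases before its start in chr13:80576209-80576268 on the plus strand and was at least 5.17-fold higher in spleen. *Cd5* holds it 90 bases before its start in chr1:216811267-216811326 on the minus strand, and the gene differed by -4.47 ± 0.40 (SE, adjusted p = 0.0016). *Rhd*, for the Rh blood group protein, holds the GATA core 72 bases before its start in chr5:152371101-152371160 on the plus strand. It had 7.29, 7.24, 7.96 and 8.03 in liver and 13.60 and 13.61 in spleen and differed by -5.97 ± 0.46 (SE, adjusted p = 0.00105). The TATA motif TATAAA stood in 17.4% of the liver set, 16.3% of the spleen set and 14.3% of all promoters.

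**Figure D4:**
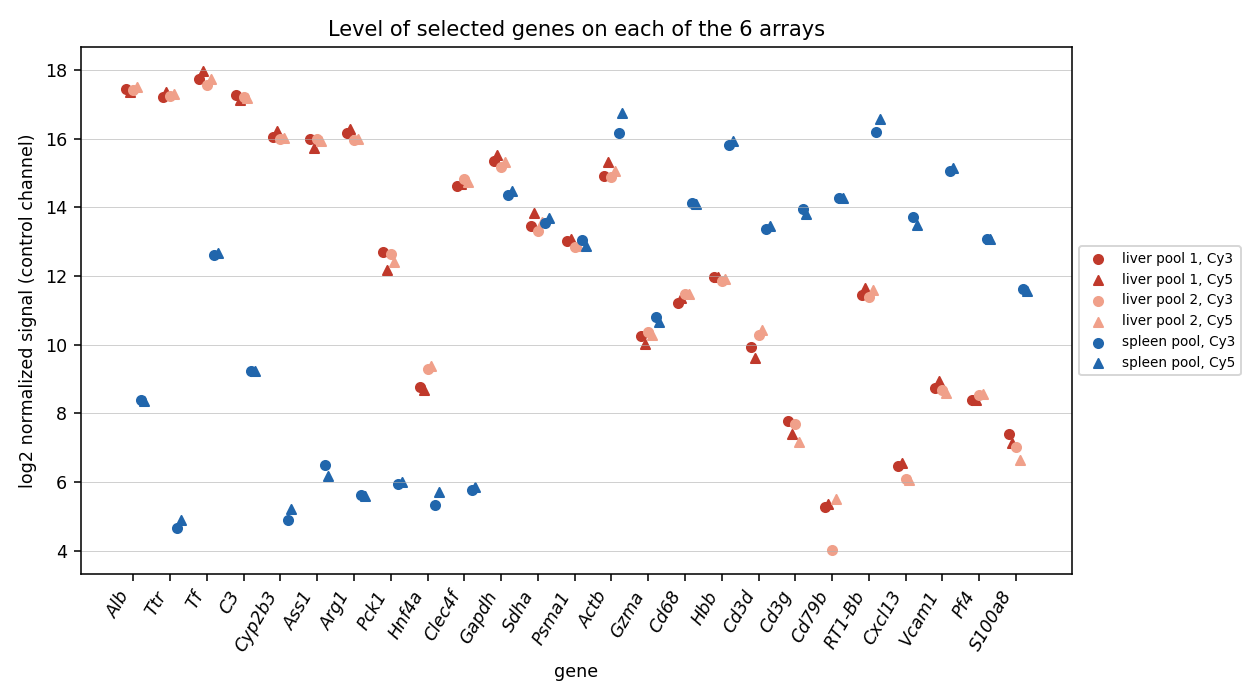
Log2 normalized signal of the control channel (y axis) for 25 genes (x axis) on each of the 6 arrays, with circles for Cy3, triangles for Cy5, dark and light red for liver pools 1 and 2 and blue for spleen. The liver and spleen points lie apart for *Alb* to *Clec4f* and for *Cd68* to *S100a8*, and lie close or mixed for *Sdha*, *Psma1* and *Gzma*.

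The genes with the 10 largest differences toward spleen among those measured in both tissues were *Fcmr*, *Ctse*, *Cxcl13*, *Vcam1*, *Cd3g*, *Prkcb*, *Fmod*, *Mefv*, *Rhd* and *Slpi*, from -7.75 to -5.95 log2 units. They include genes outside the lymphocyte lists. *Fcmr*, the Fc receptor for IgM on lymphocytes, had 6.67, 7.15, 6.77 and 7.41 in liver and 14.72 and 14.78 in spleen and differed by -7.75 ± 0.37 (SE, adjusted p = 0.000285). *Ctse*, an aspartic protease known from stomach, lymphoid tissue and red cells, had 6.64, 7.01, 6.42 and 6.15 in liver and 13.92 and 14.13 in spleen and differed by -7.47 ± 0.42 (SE, adjusted p = 0.000434). *Fmod*, for the matrix proteoglycan fibromodulin, had 7.05, 6.87, 7.48 and 7.49 in liver and 13.21 and 13.37 in spleen and differed by -6.07 ± 0.41 (SE, adjusted p = 0.000781). *Slpi*, a secreted inhibitor of neutrophil proteases, had 10.89, 11.02, 10.83 and 10.73 in liver and 16.95 and 16.68 in spleen and differed by -5.95 ± 0.37 (SE, adjusted p = 0.000583). The largest bounds toward spleen were those of *Rhag*, *Defa5*, *Mzb1*, *Fabp4*, *Cd200*, *Esm1*, *Hemgn*, *Otos*, *RT1-DOb* and *Lax1*. *Defa5*, for a defensin of granulocytes or Paneth cells, had 3.14, 3.12, 2.85 and 2.85 in liver and 11.27 and 11.18 in spleen and was at least 75.3-fold higher in spleen. *Mzb1*, a chaperone of antibody-secreting cells, was at least 73.4-fold higher, and *Esm1*, of endothelium, at least 42.6-fold.

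Cell cycle genes were higher in spleen in part. Of 14 with a probe, 13 were measured in both tissues, of which 9 were called higher in spleen, 0 higher in liver and 4 were not called, with a median of -1.73. *Cdk1*, the kinase that starts mitosis, had 10.06, 10.09, 10.19 and 9.97 in liver and 12.30 and 11.97 in spleen and differed by -2.05 ± 0.36 (SE, adjusted p = 0.0101). *Ccnb2*, for a mitotic cyclin, had 6.58, 6.39, 6.26 and 5.61 in liver and 9.34 and 9.31 in spleen and differed by -3.11 ± 0.42 (SE, adjusted p = 0.00475). *Rrm2*, a subunit of ribonucleotide reductase, had 7.31, 7.89, 7.98 and 8.32 in liver and 6.64 and 6.99 in spleen and was not called, at 1.06 ± 0.42 (SE, adjusted p = 0.0945). The median stayed below 0 under every scaling tried, from -2.39 with no scaling to -1.15 with normexp, and *Rrm2* was called higher in liver under 75th percentile scaling.

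Genes of functions that every cell uses differed less, and their calls depended on the scaling. The sign of the housekeeping median did too, whereas the oxidative phosphorylation and proteasome medians were positive under every scaling tried. All 15 housekeeping genes were measured in both tissues, and 3 were called higher in spleen and 12 were not called. The list median was -0.75, and it was 0.03 under 75th percentile scaling. *Rplp0*, a ribosomal protein gene, had 11.49, 11.35, 11.51 and 11.45 in liver and 14.23 and 14.18 in spleen and differed by -2.76 ± 0.36 (SE, adjusted p = 0.00447). *Actb*, for beta actin, had 14.92, 15.31, 14.88 and 15.06 in liver and 16.18 and 16.75 in spleen and differed by -1.42 ± 0.37 (SE, adjusted p = 0.0301), a call lost under 75th percentile scaling, where the difference was -0.38. *Gapdh*, which the study used to check its RNA, had 15.36, 15.52, 15.18 and 15.31 in liver and 14.35 and 14.49 in spleen and was not called, at 0.92 ± 0.37 (SE, adjusted p = 0.0971). It was called higher in liver under 75th percentile scaling, with 1.81.

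All 20 oxidative phosphorylation genes were measured in both tissues, and 5 were called higher in liver, 0 in spleen and 15 in neither, beside a background of 23.1% called higher in liver. Their median was 0.79. The count depended on the scaling. Under 75th percentile scaling 16 of the 20 were called higher in liver, with a median of 1.60 and a background of 32.1%, and under median scaling 12 were, with a median of 1.31 and a background of 23.9%. *Uqcrc1*, a core subunit of complex III, had 11.05, 10.49, 11.20 and 11.00 in liver and 9.08 and 9.17 in spleen and the widest gap, 1.81 ± 0.38 (SE, adjusted p = 0.0171). *Sdha*, of complex II, had 13.45, 13.82, 13.30 and 13.56 in liver and 13.53 and 13.69 in spleen and overlapped between the tissues, at -0.07 ± 0.37 (SE, adjusted p = 0.887). The 19 proteasome genes gave 0 calls either way with quantile normalization, with differences from -0.86 to 0.81 and a median of 0.14. *Psma1*, for an alpha ring subunit, had 13.01, 13.09, 12.83 and 12.88 in liver and 13.04 and 12.88 in spleen and differed by -0.01 ± 0.37 (SE, adjusted p = 0.987). Under 75th percentile scaling 7 of the 19 were called higher in liver, beside the background of 32.1%, and the median was 0.998, where that of all 15580 probes was 0.23.

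Markers of cells that a dissection could bring along were read in the same way. Pancreas lies next to the spleen. Its 18 genes with a probe had a summed signal of 1574 to 1603 on the spleen arrays and 4744 to 6325 on the liver arrays. Without *Cela1*, for an elastase, the sums were 1028 to 1098 and 1927 to 2289. *Prss2* had 8.13, 7.90, 8.35 and 8.50 in liver and 8.84 and 8.95 in spleen and was not called, at -0.67 ± 0.39 (SE, adjusted p = 0.216). *Cela1* was called higher in liver, with 2.70 ± 0.40 (SE, adjusted p = 0.00624), although a second probe of the gene was called the other way. *Spink1*, a trypsin inhibitor, was at least 28.1-fold higher in liver and the amylase gene *Amy2a3* at least 6.16-fold. Of 7 adipocyte genes, *Adipoq* and *Lep* were above background on no array of either tissue, whereas *Cfd*, which macrophages also express, had 12.35, 12.35, 12.42 and 12.41 in liver and 15.27 and 15.29 in spleen and differed by -2.90 ± 0.36 (SE, adjusted p = 0.00392). Others of the list went both ways, with *Cidec*, a lipid droplet protein, at least 66.5-fold higher in liver and *Fabp4* higher in spleen. The bile duct markers *Krt19* and *Epcam* were measured in both tissues. *Krt19* was not called, at 0.37 ± 0.36 (SE, adjusted p = 0.437), and *Epcam* was higher in liver, at 3.02 ± 0.36 (SE, adjusted p = 0.0035). Of 8 genes of liver sinusoids and stellate cells with a probe, 5 were measured in both tissues, of which 2 were called higher in liver, 1 higher in spleen and 2 were not called. *Lrat*, which stores retinol in stellate cells, had 9.13, 9.39, 8.80 and 8.74 in liver and 2.54 and 2.72 in spleen and was at least 28.6-fold higher in liver. *Rgs5*, of pericytes, was higher in spleen, at -2.54 ± 0.37 (SE, adjusted p = 0.00614), and the endothelial receptor *Kdr* was not called, at -0.70 ± 0.37 (SE, adjusted p = 0.176). The part of such cells in the other differences was not tested.

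**Figure D5:**
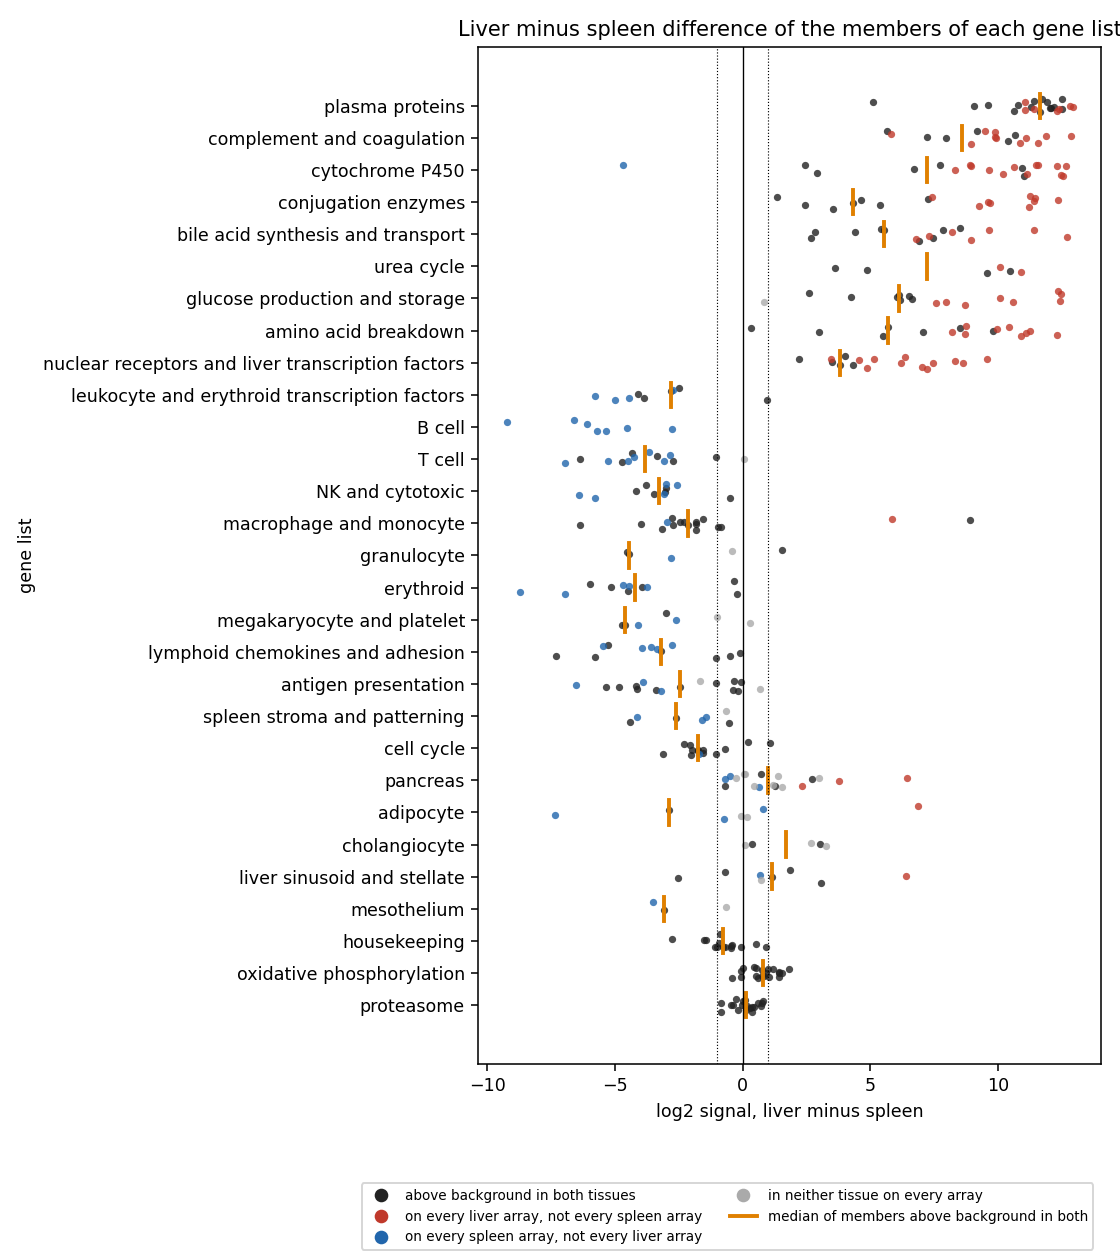
Liver minus spleen in log2 signal (x axis) for every member with a probe of the 29 gene lists (y axis), coloured by the tissues in which it was above background on every array, with the median of members measured in both tissues as an orange bar and dotted lines 1 log2 unit from 0. The 9 liver lists lie to the right, with *Cyp1b1* as the exception at the left, the blood cell lists lie mostly to the left, with *Clec4f* and *Vsig4* at the right, and housekeeping, oxidative phosphorylation and proteasome genes lie around 0.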

How the data were processed

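The authors hybridized pooled control RNA and pooled LO RNA together on 2-colour Agilent rat 4x44K arrays, 200 ng of each, and swapped the dyes on replicate 2. They extracted intensities with Agilent Feature Extraction 11.0.1.1, according to the submitters' processing notes and the file headers. The values used here are the deposited processed signal intensities of the control channel, which that software had background-subtracted and dye-normalized. Deposited ratios and their p-values, and the arrays of small intestine, were not used. The precision is limited by the number of arrays and pools.

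The 43379 features that are not controls hold 41012 probes, of which 263 were printed 10 times. Features flagged as non-uniform or as population outliers in the control channel were left out, which removed 16 probes. Log2 signals were quantile normalized over the 6 control channels, copies of a probe were averaged, and the dye orientations of a pool, which hold the same RNA, were averaged to 3 pool values. These were fitted with limma 3.58.1 in R 4.3.3 (lmFit, eBayes; 1 residual and 4.04 prior degrees of freedom, prior SD 0.33), and p-values were adjusted by Benjamini-Hochberg over all 24830 probes tested. The tests therefore measure the spread between 2 liver pools, which may be technical, and no variation between animals. The fit was tested on simulated data with known differences before use. There, few probes were changed, both tissues had equal spread, and no normalization or background filter was run, so the test does not cover those points.

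Arrays with the same replicate number share the dye orientation, and their deviations from the mean of their own pool correlated by 0.441 between the liver pools and by 0.193 and 0.314 between each liver pool and spleen. The number thus pairs the arrays, and the main fit averages over it.

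The array's RefSeq accessions were matched without versions to RefSeq symbols of GRCr8, which named 10766 probes of 8898 genes, 1601 of them with several probes, and the brightest probe was used. Called probes disagreed in sign for 8 genes, *Aoc3*, *Cav3*, *Cela1*, *Cldn4*, *Col23a1*, *Scd2*, *Tpm3* and *Zdhhc18*. The 29 gene lists, with 371 of 496 entries matched, and the tissues compared were chosen with earlier results of these data known. Genes were named by rule, as the first 5 of a list with a probe, its largest and smallest difference, and the 10 largest differences and bounds in each direction. Further list members named in the text, such as *Vsig4*, *Hmox1* and *Abcb11*, the genes of the alternative forms and the motifs were chosen after values were seen. Some members that this rule names are not reported here.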

Additional observations from a re-analysis of the deposited data

How the results depend on the processing

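Of 192 named genes that were tested, 0 changed sign as a called gene under the other settings. All 19 of these could be run for 113 genes, of which 84 stayed on their side of the threshold in every one, and the other 79 genes did not pass the stricter filter on all 6 arrays. Among these gene results 45 lost and 57 gained a call. The counts of probes measured in both tissues, 3131 higher in liver and 3033 higher in spleen, moved by over 1.5 times in 3 settings. With no scaling between arrays 5826 were higher in spleen, with no filter on dim probes 1370 and 1220 were called, with 40996 probes then fitted and adjusted together (the cause was not tested), and with a minimum of 2 log2 units 1672 and 1502. Scaling also set the balance. Liver held 50.8% of the calls with quantile normalization, 61.6% with 75th percentile scaling and 26.6% with none, and the median difference of all these probes was 0.03, 0.23 and -0.64, so small differences of either sign should be read against that shift. A fit of the 6 arrays with the replicate block called 3904 and 3750, and without the block 3953 and 3764, and the block changed no count by over 1.5 times. Leaving out replicate 1 or 2, which leaves each pool in 1 dye, gave 2274 to 2891 higher in liver and 2277 to 2807 higher in spleen. Leaving out a liver pool leaves 1 pool on each side and allows no test. By size alone, 3475 to 3925 were then higher in liver and 3277 to 3756 higher in spleen. The alternatives normexp on median signals (2662 and 3042) and keeping flagged features (3127 and 3029) were chosen after seeing the data. Signal over background limits the comparison most in liver, where 8014 probes passed on every spleen array and not on every liver array. The rule asked for 4 liver arrays and only 2 spleen arrays, which adds to that count.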

Other observations

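The LO channel of the same arrays allowed the tissue difference to be read a second time, in rats given LO. Over the 4597 genes measured in both tissues, liver minus spleen in the LO channel minus that in the control channel had a median of 0.0043 log2 units, and it was below 0 for 2207 genes and above 0 for 2390. The lists were mostly close to this. Erythroid and plasma protein genes lay furthest from it among lists with at least 5 members measured in both tissues. Other such lists were as one-sided, with smaller medians. The change was below 0 for 5 of 5 liver sinusoid and stellate genes (median -0.25) and 14 of 15 macrophage and monocyte genes (-0.11). It was also below 0 for 5 of 5 blood cell transcription factors (-0.11), and above 0 for 5 of 5 liver transcription factors (0.09). All 6 erythroid genes had a difference further toward spleen in the LO channel, and the list median of the change was -0.40. *Hbb* went from -3.95 in the control channel to -4.52 in the LO channel and *Slc4a1*, the anion exchanger of red cells, from -5.15 to -5.57. Of 15 plasma protein genes, 14 had a smaller gap in the LO channel, and the list median of the change was -0.37. *Ambp* went from 12.49 to 11.78 and *Fgb* from 12.18 to 11.58. The differences between the channels were not tested here, and the patterns were noticed in the values.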
